A study of Mus musculus with 2 samples.

Results

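The 9 genes described here encode proteins that start translation, or regulators of that step: Eif2s1, Eif2s2, Eif2b5, Eif5, Eif1, Eif4e, Eif4ebp1, Eif4a1 and Eif4a2. They were selected on results of these same libraries, among them differences between the libraries in late red cell precursors, so those contrasts are described here and nothing is supported with them. Each symbol matched 1 row of the 32285 genes in the count matrices. They were followed across red cell precursors and immune cells of the spleens of anaemic mice. Initiation begins when eIF2, a GTP-binding complex whose alpha and beta subunits come from Eif2s1 and Eif2s2, brings the initiator methionyl-tRNA to the small ribosomal subunit. eIF1 guards the choice of start codon, eIF5 triggers GTP hydrolysis on eIF2, and eIF2B, with the catalytic subunit encoded by Eif2b5, reloads eIF2 with GTP. eIF4E binds the messenger RNA cap and is held back by 4E-BP1 (Eif4ebp1), while the eIF4A helicases (Eif4a1, Eif4a2) unwind the messenger RNA leader. In red cell precursors the kinase HRI (Eif2ak1) phosphorylates eIF2 alpha when haem runs short, which couples globin synthesis to the haem supply.

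The mice were C57BL/6 animals made anaemic for 1 month, in 1 group by PHZ injected every 3 days and in the other by bleeding at the same interval. Live spleen cells of each group gave 1 droplet-based library of messenger RNA 3′ ends, counted as unique molecular identifiers (UMIs). The number of mice behind a library was not stated, and untreated mice were not analysed here. Since each treatment has 1 library, no comparison of treatments carries a test, and treatment, mouse and library cannot be told apart. Intervals are at the 95% level and cover the error of counting only.

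The filters kept 6113 PHZ cells (median 12242 UMIs) and 8953 bleeding cells (median 8045 UMIs). The libraries shared 15 cell barcodes. Erythroid-like cells numbered 3194 and 2343, and were split by the share of their UMIs that came from haemoglobin genes. These stages are ranges and not cell types. Cells below 20% haemoglobin, the least mature, numbered 350 in the PHZ and 171 in the bleeding library. Those from 20 to 50% numbered 267 and 107, and those from 50 to 80% numbered 898 and 390. Late cells, at 80% or more with at least 500 genes detected, numbered 410 and 203, and cells at 80% or more with at least 300 but fewer than 500 genes numbered 1269 and 1472. All 16 erythroid markers had UMIs in late cells of both libraries. Within 2 percentage points of the 80% boundary lay 115 and 80 cells, and within 50 genes of the 500-gene boundary 314 and 182. Levels are CPM, the gene's UMIs summed over the cells of a group and scaled by the group's total without haemoglobin genes. A lower level may therefore mean fewer expressing cells or less RNA per cell, which such sums cannot tell apart.

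Positions are given in the GRCm38 build. Eif2s1 (chr12:78861819-78887010) and Eif5 (chr12:111538016-111546752) share a chromosome, as do Eif1 (chr11:100319885-100322096) and Eif4a1 (chr11:69666936-69672423), and Eif2b5 (chr16:20498817-20509323) and Eif4a2 (chr16:23107444-23114136). Eif2s2 lies at chr2:154871410-154892935, Eif4e at chr3:138526179-138559696 and Eif4ebp1 at chr8:27260329-27276674. Exons of Eif4a2 overlap those of Rfc4, a replication factor subunit gene on the opposite strand, and the strand setting of the counting is not given in the sources used here. Eif1 has 3 pseudogenes annotated under its name, none of them in the count matrices. Whether any of their reads were counted as Eif1 is not known. Pseudogenes of the other members were not searched for.

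The stretches shown are the 100 bases directly before the first start that RefSeq or GENCODE gives for 5 members, with the letters from RefSeq (GRCm38.p6), on the strand of the gene. Eif5 and Eif1 are shown because their share of messenger RNA was higher in late cells, Eif2s2 because it differed between the libraries, and Eif4a1 and Eif4a2 because these paralogs were highest in different cells of the spleen. Capitals mark a GC box (GGGCGG or its complement) or a CCAAT box.
Eif5 (chr12:111537916-111538015, + strand): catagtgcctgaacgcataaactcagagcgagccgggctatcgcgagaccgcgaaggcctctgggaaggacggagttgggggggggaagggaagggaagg
Eif1 (chr11:100319785-100319884, + strand): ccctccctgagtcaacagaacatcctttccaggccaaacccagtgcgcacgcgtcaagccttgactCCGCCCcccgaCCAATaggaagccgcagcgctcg
Eif2s2 (chr2:154892936-154893035, - strand): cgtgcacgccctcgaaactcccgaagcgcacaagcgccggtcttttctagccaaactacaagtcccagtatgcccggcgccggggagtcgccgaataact
Eif4a1 (chr11:69672424-69672523, - strand): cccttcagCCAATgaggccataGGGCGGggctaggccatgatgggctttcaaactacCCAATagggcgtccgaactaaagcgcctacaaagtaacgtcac
Eif4a2 (chr16:23107344-23107443, + strand): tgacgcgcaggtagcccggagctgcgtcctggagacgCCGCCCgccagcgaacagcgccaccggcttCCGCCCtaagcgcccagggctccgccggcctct

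The motif search used other windows, the 250 bases before the RefSeq start. Among the genes shown, that start lies downstream of the first one for Eif5, Eif1, Eif2s2 and Eif4a2. A match such as the Eif5 GC box 29 bases before it is therefore outside the stretch printed. Searched on both strands, the RefSeq table covered 8 of the 9 members with 9 windows. The GATA motif AGATAA, bound by the erythroid factor GATA1, was found in 0 of these windows and in 9.99% of 32851 promoter windows of the same length. The ATF4-type motif TGATGNAA, in 3.45% of all windows, was also found in 0, as were the ETS motif CCGGAAG, in 6.91% of all, and the NRF1 motif, in 0.782%. The E-box CACGTG, in 6.02% of all windows, was found in Eif4a1 and in the second Eif4e window. A GC box is in 32.7% of all windows and was found in those of Eif2s1, Eif5, Eif1, Eif4a1 and Eif4a2, and CCAAT, in 33.9% of all, in those of Eif2b5, Eif1, Eif4a1 and the second of Eif4e. These matches describe letters only.

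Most members took a smaller share of the messages in late cells than in the least mature ones, as most genes did, while Eif5 took a larger share in both libraries. Of the 9 members, 7 were at least 1.5-fold lower in late cells than in cells below 20% haemoglobin in the PHZ library, where 82.4% of 10485 genes with at least 20 UMIs were lower by that much. The same 7 of 9 were lower in the bleeding library, where 78.4% of 9724 genes were, so the members' share was close to that of all genes. Eif5 was higher in both libraries and Eif1 passed the fold in the PHZ library alone, against 10.5% of genes higher in the PHZ and 12.3% in the bleeding library. Of 57 other initiation genes with enough UMIs, 49 were lower and 6 higher in the PHZ library, and 46 were lower and 6 higher in the bleeding library. Along the way, 5 of 9 members were lower and 1 higher, Eif1, at 20 to 50% haemoglobin in each library, where 50.3% of PHZ and 50.7% of bleeding genes were lower and 19.2% and 21.1% higher. At 50 to 80% it was 6 lower in the PHZ and 7 in the bleeding library, against 67% and 66.6% of genes, with Eif5 and Eif1 higher in both, against 18.3% and 18.4%. In cells with fewer than 500 genes it was 7 lower and 2 higher in both, against 86% and 83.8% of genes lower and 8.2% and 9.49% higher. The haemoglobin-dominated barcodes had the same counts of 7 and 2, against 86.9% and 84.3% of genes lower and 6.93% and 9.32% higher. The median late level was 0.241 of the level below 20% haemoglobin for the members in the PHZ library and 0.125 for all genes, and 0.160 and 0.169 in the bleeding library.

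**Figure D1:**
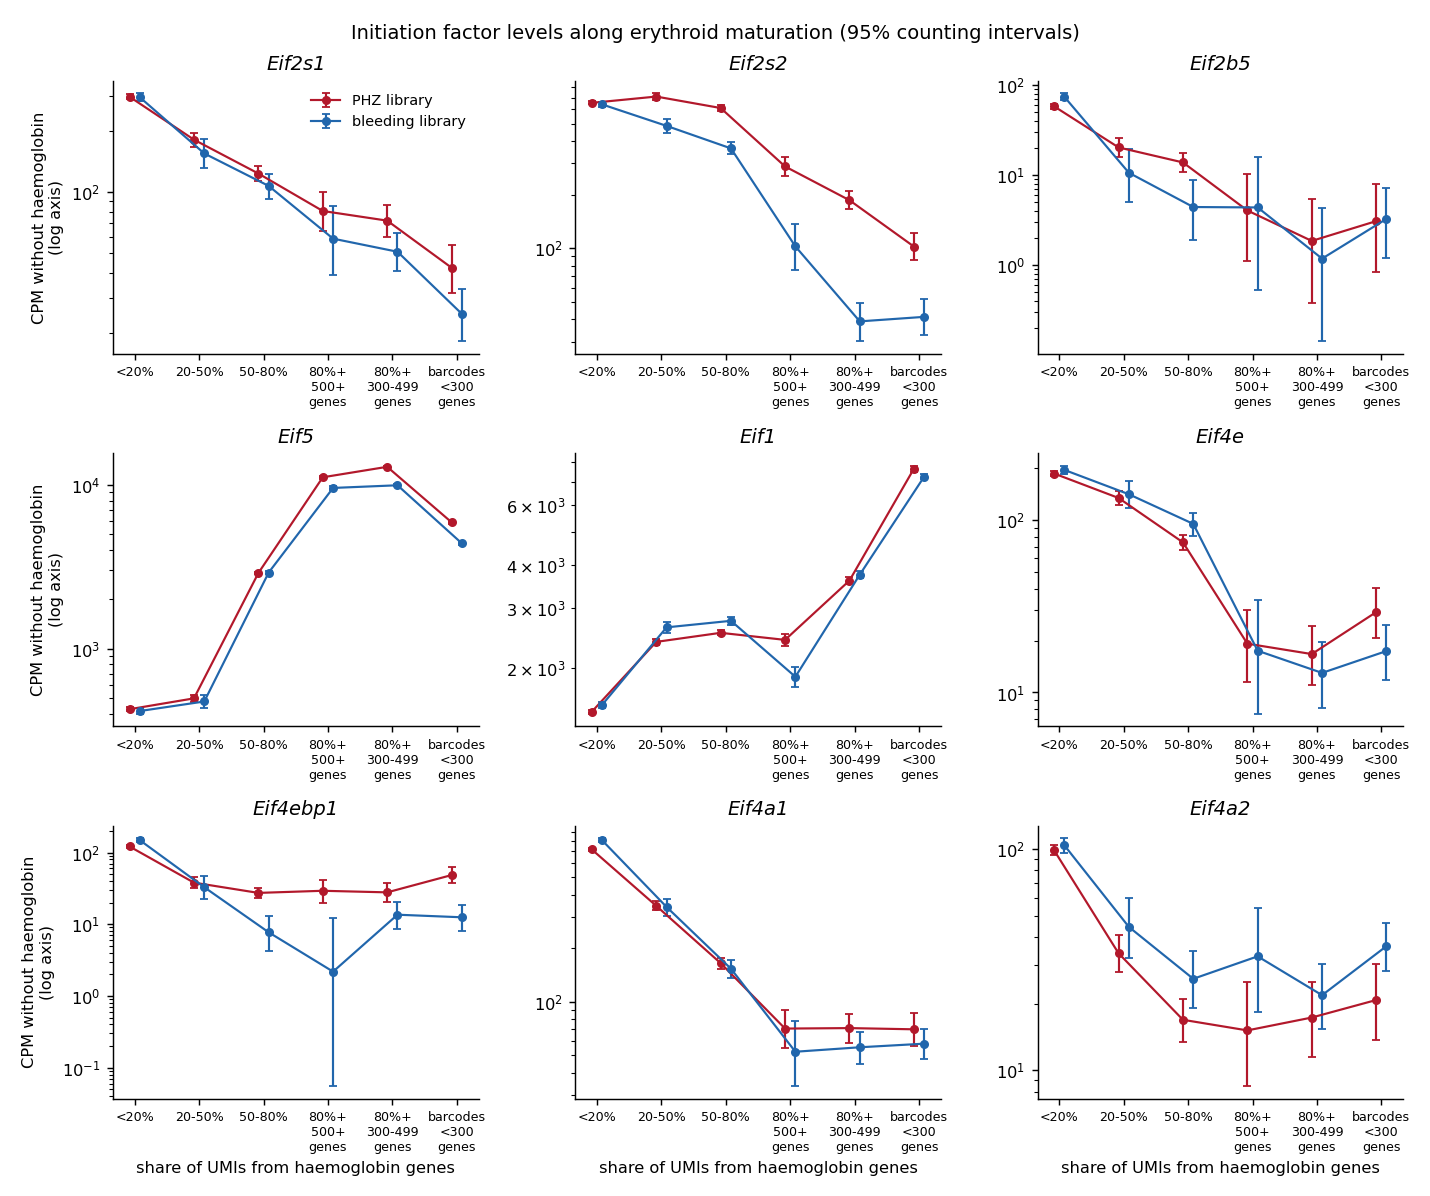
Level of each member (CPM without haemoglobin, log axis) in the PHZ library (red) and the bleeding library (blue) along ranges of the haemoglobin share, with haemoglobin-dominated barcodes of 50 up to 300 genes last; bars are 95% counting intervals. Eif5 and Eif1 are higher at the haemoglobin-rich end, the other 7 lower, and the PHZ line lies above the bleeding line for Eif2s2 and Eif4ebp1 from 50 to 80% onwards.

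Eif5, the GTPase-activating factor for eIF2, had the steepest climb of the members. Its level in the PHZ library was 426 CPM below 20% haemoglobin, 496 at 20 to 50%, 2893 at 50 to 80%, 11125 in late cells and 12889 in cells with fewer than 500 genes. In the bleeding library the levels were 415, 475, 2913, 9577 and 9942 CPM. As a fold, the largest step between neighbouring stages lay between the 20 to 50% and 50 to 80% ranges in both libraries, and the late share was 26.1-fold (25.3 to 26.9) and 23.1-fold (22.0 to 24.2) that below 20%. Per cell the climb was far smaller and was confined to late cells. The least mature cells held 1723 Eif5 UMIs per 100 cells in the PHZ and 1608 in the bleeding library, and late cells 2689 and 2163. The other stages lay below that start. They held 616 and 420 per 100 cells at 20 to 50% haemoglobin and 1544 and 1356 at 50 to 80%. Cells with fewer than 500 genes held 1644 and 1145, and haemoglobin-dominated barcodes 303 and 270. From the least mature to late cells, the median cell went from 15223 to 2193 and from 17439 to 2108 UMIs without haemoglobin. UMIs per 100 cells are means, so they do not combine with these medians into the fold in share. Summed without haemoglobin, PHZ cells held 14148777 UMIs in 350 least mature and 991097 in 410 late cells. Bleeding cells held 6620111 in 171 and 458515 in 203. When every cell was thinned to 200 UMIs without haemoglobin, 81.2% (77.1 to 84.9%) of late PHZ cells and 76.8% (70.4 to 82.5%) of late bleeding cells held an Eif5 UMI, against 8% and 8.77% of the least mature cells. Without thinning, 99.8% and 98.0% of late cells did, against 80.3% and 70.8%.

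Eif5 was matched by the libraries up to 80% haemoglobin, with PHZ over bleeding ratios of 1.03, 1.05 and 0.993, and was higher in the PHZ library beyond it. The ratio was 1.16 (1.122 to 1.203) in late cells and 1.30 (1.27 to 1.32) in cells with fewer than 500 genes. Neither passed 1.5-fold. In haemoglobin-dominated barcodes of 50 up to 300 genes, which hold too few genes to be called cells here, Eif5 was lower again, at 5906 and 4389 CPM.

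Eif1, which monitors start codon recognition, was also a larger share of the messages left in haemoglobin-rich cells. In the PHZ library its level was 1489 CPM below 20%, 2383 at 20 to 50%, 2533 at 50 to 80%, 2416 in late cells, 3602 in cells with fewer than 500 genes and 7648 in haemoglobin-dominated barcodes. In the bleeding library these levels were 1560, 2628, 2747, 1884, 3748 and 7253 CPM. Unlike Eif5, Eif1 fell per cell, from 6020 to 584 UMIs per 100 cells in the PHZ and from 6038 to 426 in the bleeding library. The higher late share of Eif1 therefore depends on the denominator: with haemoglobin UMIs counted in it, the late Eif1 level was 0.218 of the level below 20% in the PHZ and 0.158 in the bleeding library. The libraries differed by less than 1.5-fold at every stage, with ratios of 0.955, 0.907, 0.922, 1.28 (1.18 to 1.39) and 0.961 in order of maturity. Inside the late stage the ratio was uneven, in ranges set after the data were seen. It passed the fold at 80 to 85% haemoglobin, at 1.69 (1.465 to 1.96). It was 1.235 (1.098 to 1.39) at 85 to 90% and 0.935 (0.794 to 1.10) at 90 to 95%.

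Eif2s1, the eIF2 alpha subunit gene, whose product is the one that HRI phosphorylates, was lower at each later stage. In the PHZ library it stood at 297 CPM below 20%, 182 at 20 to 50%, 124 at 50 to 80%, 80.7 in late cells and 72.3 in cells with fewer than 500 genes. In the bleeding library the levels were 295, 156, 107, 58.9 and 50.7 CPM. The last pair of neighbouring stages did not differ beyond their intervals in either library. The late level was 0.272 of that in the least mature cells in the PHZ and 0.1998 in the bleeding library. The PHZ over bleeding ratio was 1.01 at the start and 1.37 (0.876 to 2.21) in late cells, from 80 and 27 UMIs. It was 1.43 (1.07 to 1.91) in cells with fewer than 500 genes and 1.69 (1.12 to 2.56) in haemoglobin-dominated barcodes. The interval included 1 in late cells and not in the other 2 groups. Background Eif2s1 was also higher in the PHZ library, at 146 against 99.0 CPM.

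Eif2s2, the eIF2 beta subunit gene, parted the libraries as haemoglobin accumulated. In the PHZ library its level was 654 CPM below 20%, 709 at 20 to 50%, 612 at 50 to 80%, 288 in late cells, 186 in cells with fewer than 500 genes and 102 in haemoglobin-dominated barcodes. In the bleeding library it was 641, 486, 363, 102, 38.9 and 41.3 CPM. At 50 to 80% the PHZ level was thus 0.935 of its starting level and the bleeding level 0.567. The PHZ over bleeding ratio was 1.02 (0.984 to 1.06) below 20%, 1.46 (1.32 to 1.62) at 20 to 50% and 1.68 (1.55 to 1.84) at 50 to 80%. It was 2.80 (2.06 to 3.91) in late cells, from 285 and 47 UMIs, and 4.78 (3.65 to 6.34) in cells with fewer than 500 genes, from 301 and 66. In haemoglobin-dominated barcodes it was smaller again, at 2.48 (1.855 to 3.33), from 133 and 76 UMIs. The late contrast is among those from which the members were chosen, so these ratios describe and do not test the difference. Thinned to 200 UMIs, 4.39% (2.62 to 6.85%) of late PHZ cells and 0.985% (0.12 to 3.51%) of late bleeding cells held an Eif2s2 UMI, and unthinned 34.9% and 17.2% did. In B cell-like cells the thinned shares were 3.08% and 2.51%.

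**Figure D2:**
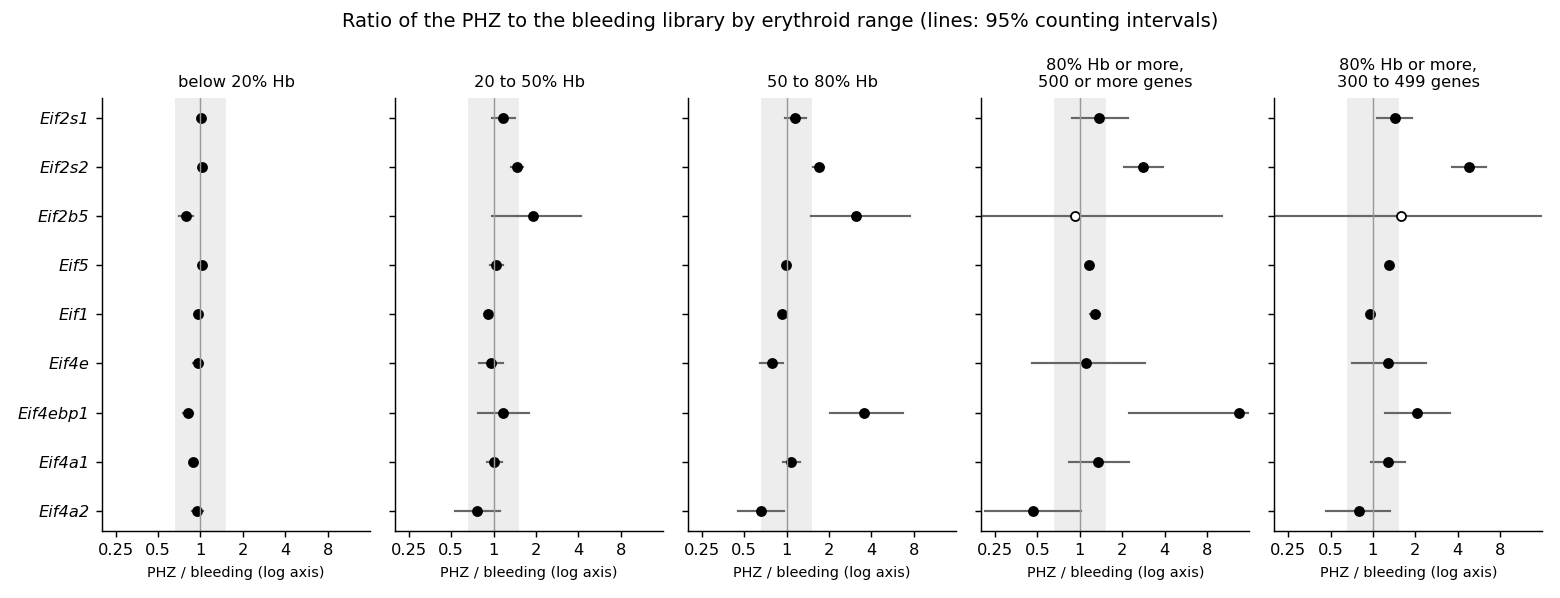
Ratio of the PHZ to the bleeding library (log axis) for each member in 5 ranges of the haemoglobin (Hb) share; lines are 95% counting intervals, cut at the axis limits, open points have under 20 UMIs over both libraries, and the grey band spans 1.5-fold in each direction. The Eif2s2 ratio moves from 1.02 at the left to 4.78 at the right.

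The difference in Eif2s2 was present in every finer range of late cells, which were set after the data were seen. In cells with 500 or more genes the ratio was 2.79 (1.80 to 4.48) at 80 to 85% haemoglobin, 2.67 (1.63 to 4.63) at 85 to 90% and 4.47 (1.57 to 17.5) at 90 to 95%. By genes detected it was 3.29 (2.12 to 5.34) from 500 up to 750 genes, 1.78 (1.05 to 3.196) from 750 up to 1000 and 4.55 (1.95 to 12.99) at 1000 or more, the last from 16 and 11 cells. No interval reached 1. Both splits divide the same late cells, and the members were chosen with the late contrast in view. The ranges therefore describe the difference and add no support to it. Background RNA moved the same way, with Eif2s2 at 362 CPM in PHZ barcodes of 10 to 100 UMIs and 156 in bleeding ones. With that background subtracted the ratio was 2.84 in late cells and 5.98 in cells with fewer than 500 genes. Neutrophil markers were also higher in late PHZ cells, with 11 of 11 detected at a summed 1125 CPM, against 8 of 11 at 484 CPM in the bleeding library, where Ly6g, Cxcr2 and Mmp8 were at 0. Neutrophil-like cells themselves held Eif2s2 at 130 and 106 CPM, and the part of their RNA in the late difference was not tested.

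**Figure D3:**
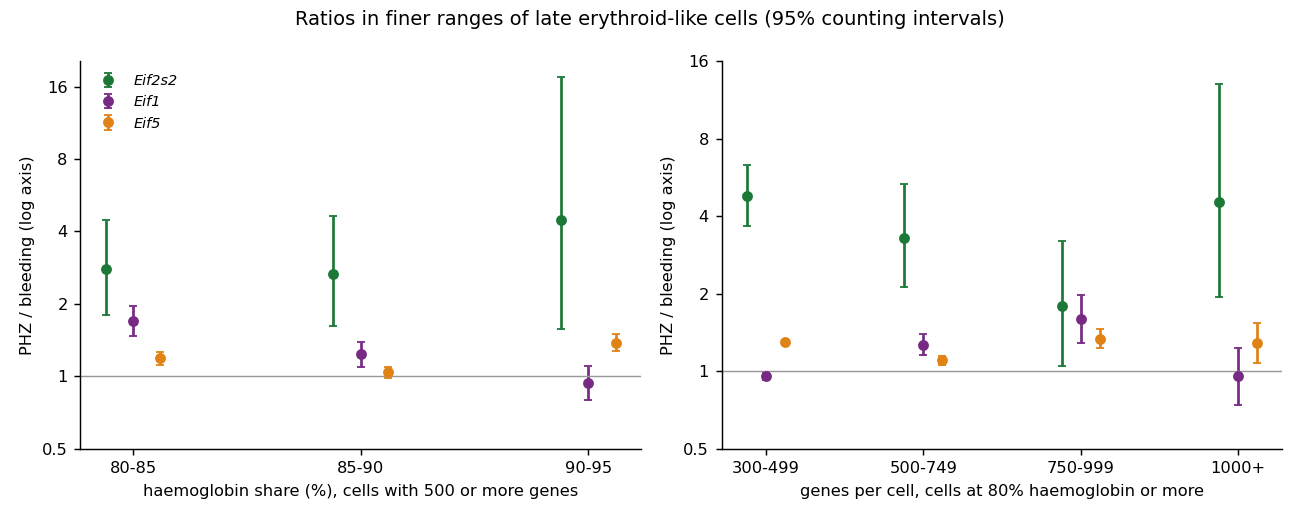
PHZ over bleeding ratio (log axis) of Eif2s2, Eif1 and Eif5 in finer ranges of late erythroid-like cells, by haemoglobin share (left) and by genes detected (right), with 95% counting intervals. Eif2s2 lies above 1 in all 7 ranges, from 1.78 to 4.78, while Eif1 and Eif5 lie between 0.935 and 1.69.

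Eif2b5, the catalytic subunit gene of eIF2B, was scarcely detected in haemoglobin-rich cells. It stood at 57.7 CPM below 20% in the PHZ and 73.4 in the bleeding library, at 20.2 and 10.6 at 20 to 50%, and at 13.8 and 4.41 at 50 to 80%. Late cells held only 4 and 2 UMIs, too few for a ratio to be read. At 50 to 80% the ratio was 3.12 (1.496 to 7.54), from 66 and 8 UMIs.

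Among the cap-binding genes, Eif4e was lower at each step up to the late stage, and at none of the 5 erythroid stages did the libraries differ by 1.5-fold. Its PHZ levels were 186 CPM below 20%, 134 at 20 to 50%, 74.1 at 50 to 80%, 19.2 in late cells and 16.7 in cells with fewer than 500 genes. Its bleeding levels were 195, 141, 94.8, 17.4 and 12.98 CPM. The late ratio of 1.10 (0.459 to 2.90) rested on 19 and 8 UMIs. In haemoglobin-dominated barcodes the ratio was 1.68 (1.02 to 2.78), from 38 and 32 UMIs. Background Eif4e was also higher in the PHZ library, at 120 against 83.7 CPM.

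Eif4ebp1, the gene of the eIF4E-binding repressor 4E-BP1, was lower with maturation in both libraries but was held at a higher level in the PHZ library. PHZ levels were 121 CPM below 20%, 38.0 at 20 to 50%, 27.3 at 50 to 80%, 29.3 in late cells, 27.8 in cells with fewer than 500 genes and 48.4 in haemoglobin-dominated barcodes. Bleeding levels were 148, 32.8, 7.71, 2.18, 13.6 and 12.5 CPM. From 50 to 80% onwards the PHZ library was thus the higher at each stage, after being the lower below 20%, at a ratio of 0.818 (0.756 to 0.885), which was 1.2 with doublets kept. The ratio was 3.54 (2.04 to 6.66) at 50 to 80% and 2.05 (1.21 to 3.55) in cells with fewer than 500 genes. In late cells it was 13.4 (2.22 to 548), from 29 UMIs against 1. In haemoglobin-dominated barcodes it was 3.88 (2.37 to 6.55). The background level of Eif4ebp1 was also higher in the PHZ library, at 56.8 against 22.9 CPM, and with it subtracted the ratio at 50 to 80% was 3.62.

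The helicase genes Eif4a1 and Eif4a2 were both lower with maturation. Eif4a1 was at 717 CPM below 20%, 346 at 20 to 50%, 165 at 50 to 80%, 70.6 in late cells and 71.1 in cells with fewer than 500 genes of the PHZ library. In the bleeding library it was at 807, 341, 153, 52.3 and 55.5 CPM. No erythroid stage differed by 1.5-fold between the libraries, and the late ratio of 1.35 (0.838 to 2.24) had an interval that included 1. Eif4a2 stood at 98.6, 33.8, 16.9, 15.1 and 17.3 CPM in the PHZ library and at 104, 44.4, 25.9, 32.7 and 21.8 CPM in the bleeding library. It was the only member lower in the PHZ library by 1.5-fold, at 0.653 (0.450 to 0.956) at 50 to 80% and 0.463 (0.211 to 1.02) in late cells, from 15 and 15 UMIs. In cells with fewer than 500 genes it was 0.793 (0.467 to 1.33), and 1.41 with background RNA subtracted, where Eif4a2 stood at 177 CPM in the PHZ and 230 in the bleeding library. B cell-like cells had the highest Eif4a2 of the 6 immune classes compared, and summed B cell markers stood at 149 CPM in late PHZ and 696 CPM in late bleeding cells, with 8 of 8 detected in each. Their part in the Eif4a2 difference was not tested.

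Counted together, 2 of the 8 members with at least 20 UMIs in late cells, Eif2s2 and Eif4ebp1, were at least 1.5-fold higher in the PHZ library, and 1, Eif4a2, was lower. Of all 2868 genes counted there, 16.5% were higher and 19.2% lower. In cells with fewer than 500 genes the same 2 of 8 were higher and 0 lower, against 18.3% and 22.3% of 4237 genes. At 50 to 80% haemoglobin 3 of 9 were higher, Eif2s2, Eif4ebp1 and Eif2b5, and Eif4a2 was lower, against 10% and 11.3% of genes. At 20 to 50% only Eif2b5 passed the fold, at 1.91 (0.977 to 4.16), against 10.8% of genes. Below 20% 0 of 9 passed in either direction, against 4.32% and 8.52%. In haemoglobin-dominated barcodes 4 of 8 were higher, Eif2s1, Eif2s2, Eif4e and Eif4ebp1, and Eif4a2 was lower, against 21.1% and 21.8%. Background RNA weighs most in these barcodes, at an estimated 83.7 and 89.2 UMIs without haemoglobin each, against medians of 490 and 638. The background levels of these genes differed between the libraries in the same directions, and their part in the differences was not tested. The late counts moved with the settings: 5 members were higher when the 3 highest cells of each gene were left out of each library, and with a minimum of 50 UMIs only Eif2s2 was higher and 0 lower. The members were picked with late differences in view, so nothing is read from these late shares.

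The other genes of the pathway, 58 in the matrices, showed no common direction between the libraries in late cells. There 33 had at least 20 UMIs, of which 8 were at least 1.5-fold higher in the PHZ library and 6 lower, and their median log2 ratio was 0.01 against -0.06 for all genes. Eif3c, which encodes a core subunit of the eIF3 scaffold, was the only one past 2-fold with at least 50 UMIs in the higher library. It had 186 UMIs (188 CPM) in late PHZ cells and 24 UMIs (52.3 CPM) in late bleeding cells, a ratio of 3.58 (2.34 to 5.74), and in cells with fewer than 500 genes the ratio was 2.72 (2.05 to 3.64). The most abundant ones differed by less than 1.5-fold in late cells. Pabpc1, encoding the poly(A)-binding protein that joins messenger RNA ends, was at 11708 and 12307 CPM. Ppp1r15a, encoding the phosphatase subunit that reverses eIF2 alpha phosphorylation, was at 1190 and 1524 CPM. Eif2ak1, the HRI gene, was at 947 and 1112 CPM in late cells, after 113 and 105 below 20% and 1311.6 and 1400.5 at 50 to 80%. In cells with fewer than 500 genes it was lower again, at 447 and 287 CPM. There it passed 1.5-fold in the other direction, at a ratio of 1.555 (1.385 to 1.748).

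Genes of the stress response that follows eIF2 phosphorylation were given beside the eIF2 genes, although they are not members. They were picked by name, and RNA levels do not measure that phosphorylation. Atf4, the transcription factor gene of the integrated stress response, was at 165 CPM in late PHZ cells and 34.9 in late bleeding cells, a ratio of 4.74 (2.83 to 8.49), after 0.962 (0.892 to 1.04) below 20%. Asns, the asparagine synthetase gene and an ATF4 target, was at 70.6 and 6.54 CPM in late cells, from 70 and 3 UMIs. Ddit3, encoding the stress factor CHOP, had ratios of 1.40 (1.09 to 1.82) at 50 to 80%, 2.66 (0.909 to 10.6) in late cells, from 23 and 4 UMIs, and 5.03 (1.88 to 16.9) in cells with fewer than 500 genes. All 3 genes were thus higher in the PHZ library in late cells, with an interval that included 1 for Ddit3. Of all genes counted there, 16.5% were at least 1.5-fold higher. Ppp1r15a and Eif2ak1, which act on the same phosphorylation, were the lower in late PHZ cells. No relation to Eif2s2 was tested.

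In 3 of 6 immune classes no member differed by 1.5-fold between the libraries, and in the other 3 between 1 and 3 members did. In B cell-like cells (1459 and 3425) 0 of 9 members differed by 1.5-fold, against 5.21% of genes higher and 4.59% lower. In T cell-like cells (455 and 1913) it was also 0 of 9, against 6.08% and 5.24%, and in monocyte-like cells (154 and 71) 0 of 9, against 11.3% and 7.63%. At these background shares few or none of 9 genes would pass, so nothing is read from the counts. In monocyte-like cells Eif5 was the lower in the PHZ library, at 172 and 238 CPM (0.721, 0.599 to 0.870). Eif2s2 in particular had ratios of 0.935 (0.874 to 0.9998) in B, 1.07 (0.975 to 1.16) in T, 0.959 (0.711 to 1.28) in NK, 0.936 (0.750 to 1.18) in monocyte, 0.993 (0.837 to 1.18) in dendritic and 1.22 (1.001 to 1.51) in neutrophil-like cells. Its immune levels lay between 106 and 160 CPM, so the least mature erythroid cells were above all 6 classes in both libraries. Late bleeding erythroid cells were the lowest, at 102 CPM (75.3 to 136) from 47 UMIs. Among the classes, only the T cell-like intervals lay clear of that one.

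**Figure D4:**
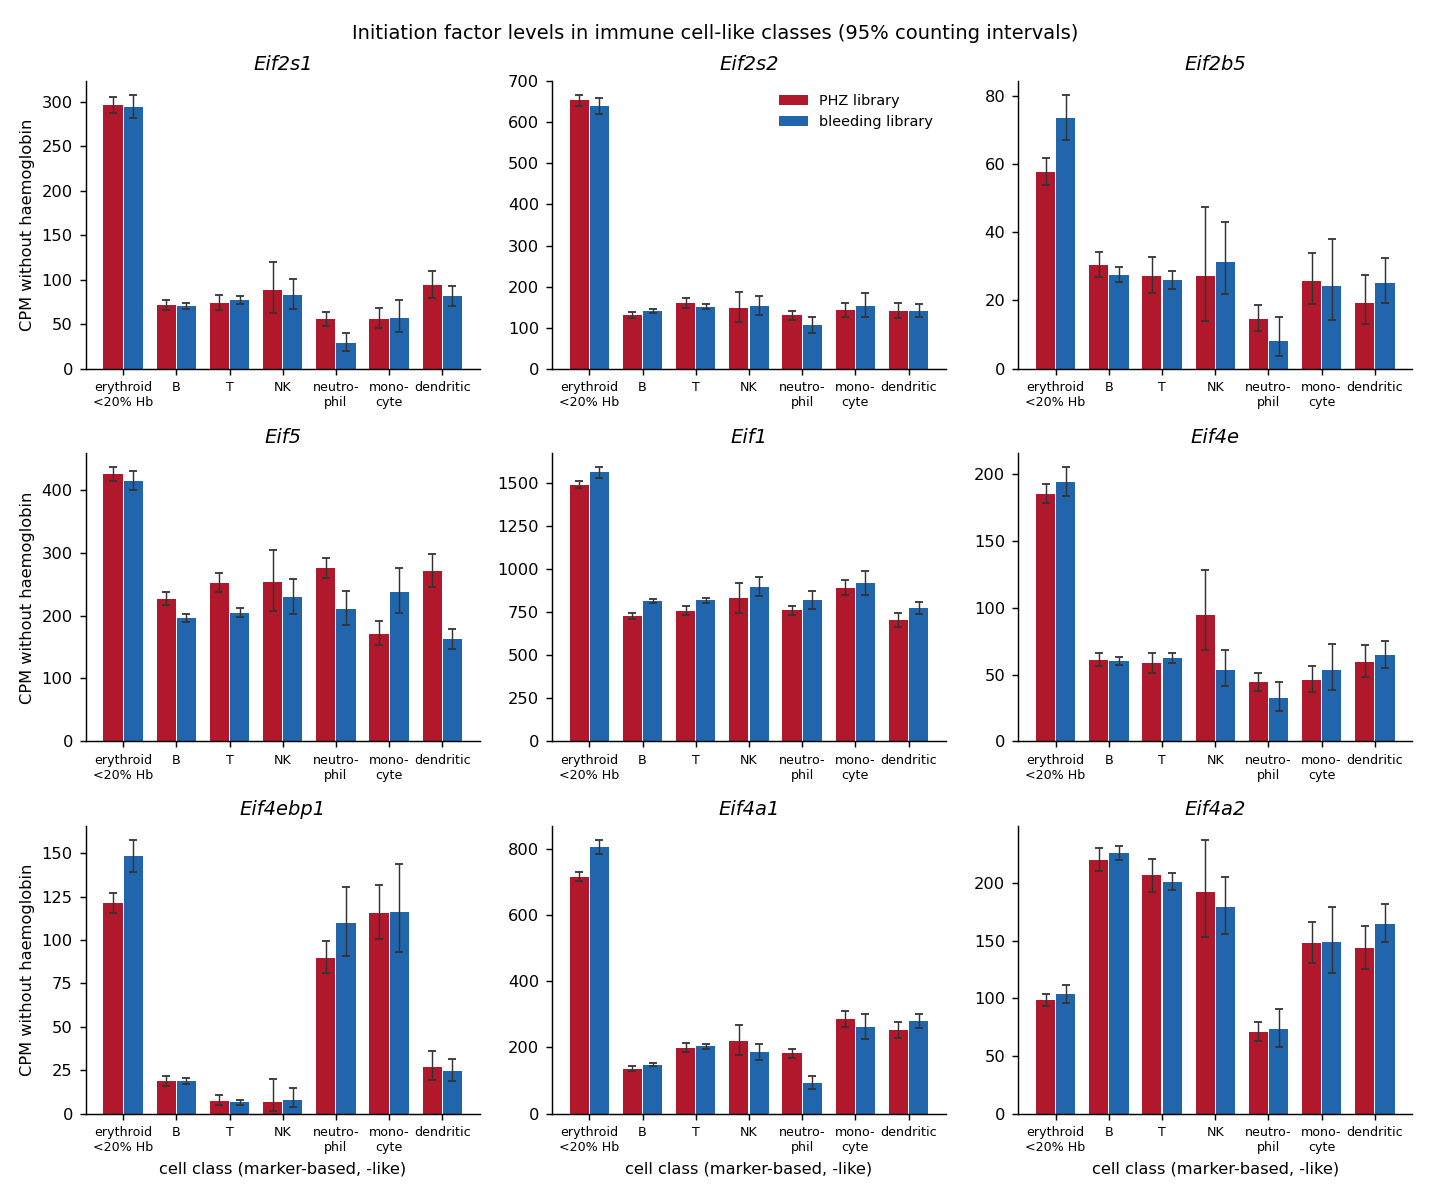
Level of each member (CPM without haemoglobin, linear axis from 0) in the least mature erythroid-like cells and 6 immune cell-like classes of the PHZ library (red) and the bleeding library (blue), with 95% counting intervals. Eif4a2 is higher in B, T and NK cell-like than in erythroid-like cells, the other members the reverse, and Eif4ebp1 is high in neutrophil-like and monocyte-like cells.

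The helicase paralogs were highest in different cells. Eif4a1 was at 717 and 807 CPM in the least mature erythroid cells and at 135 and 148 in B cell-like cells, whereas Eif4a2 was at 98.6 and 104 in the former and at 220 and 226 in the latter. The Eif4a2 order ran from B (220 and 226) through T (207 and 201) and NK cell-like cells (192 and 179) to dendritic (143 and 164) and monocyte-like cells (148 and 149) and last to neutrophil-like cells (70.6 and 73.0). Many neighbours in this order did not differ in Eif4a2 beyond their intervals. T and NK, NK and dendritic, and dendritic and monocyte-like cells overlapped in both libraries, and B and T cell-like cells overlapped in the PHZ library. Neutrophil-like cells lay below all other 5 classes in both.

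Eif4ebp1 had the widest range over immune classes. Among the 6 classes it was highest in monocyte-like cells, at 116 CPM in each library, and neutrophil-like cells, at 89.8 and 110. It was lowest in T cell-like cells, at 7.33 and 6.40, and NK cell-like cells, at 6.78 and 7.78. B cell-like cells stood at 18.8 and 18.5 CPM and dendritic cell-like cells at 26.8 and 24.4. Monocyte and neutrophil-like cells did not differ beyond their intervals in the bleeding library, nor did T and NK cell-like cells in either library. The neutrophil-like class was uneven when its clusters were split after the data were seen. Its cluster led by Il1b, Csf3r and Retnlg held Eif4ebp1 at 199 and 268 CPM, above the monocyte-like level. In its cluster led by Camp, Ngp and Ltf the levels were 63.9 and 63.3 CPM.

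Taken as whole classes, the other members were flatter in immune cells. Eif1 lay between 700 and 915 CPM in all 6 classes, with monocyte-like cells first and dendritic cell-like cells last in both libraries. Eif2s1 lay between 28.5 and 94.0, Eif2b5 between 8.02 and 31.1, and Eif4e between 32.1 and 94.9 CPM, with neutrophil-like cells last for each of the 3 in both libraries. Except for Eif2s1 in the bleeding library, this last place overlapped another class. In the PHZ library Eif2s1 was at 55.6 CPM in neutrophil-like and 56.2 in monocyte-like cells. Eif5 lay between 162 and 276 CPM. Inside the neutrophil-like class the clusters differed. The Il1b cluster held Eif1 at 1197 and 1372.5 CPM and Eif5 at 345 and 383. The Camp cluster held Eif1 at 655 and 658 CPM and Eif5 at 259 and 161. Red pulp macrophage-like cells, with only 18 PHZ and 212 bleeding cells, held Eif5 at 2072 and 1319 CPM, and 52.0% and 53.1% of their UMIs came from haemoglobin genes. The 3 highest cells held 85.7% of their PHZ Eif5 UMIs and 13.55% of the bleeding ones, so the PHZ level rests on few cells.

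A few immune differences between the libraries passed 1.5-fold. In neutrophil-like cells (295 and 111) 3 of 9 members were higher in the PHZ library, against 18.3% of genes higher and 10.1% lower: Eif2s1 at 55.6 and 28.5 CPM (ratio 1.95, 1.34 to 2.92), Eif4a1 at 182 and 92.7 (1.96, 1.60 to 2.44) and Eif2b5 at 14.5 and 8.02 (1.80, 0.888 to 4.14). The class joins a cluster led by Camp, Ngp and Ltf, genes of immature granule-forming neutrophils, with 146 and 47 cells, and a cluster led by Il1b, Csf3r and Retnlg with 149 and 64 cells. Within the former the Eif4a1 ratio was 2.17 (1.73 to 2.75), and within the latter it was 0.745 (0.425 to 1.35). With each cell given equal weight the Eif4a1 ratio over the class was 0.998. The difference in Eif4a1 thus lay in the Camp cluster and was not seen over the class with equal weights. Of 56 other initiation genes counted in neutrophil-like cells, 14 were higher in the PHZ library and 0 lower.

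In NK cell-like cells (63 and 159) Eif4e was the only 1 of 8 counted members past the fold, at 94.9 and 53.6 CPM (1.77, 1.17 to 2.66), against 9.84% of genes. In dendritic cell-like cells (95 and 170) only Eif5 passed it, at 271 and 162 CPM (1.67, 1.46 to 1.92), against 10.4% of genes higher and 8.1% lower. Haemoglobin took 7.27% of UMIs in those PHZ cells and 2.92% in the bleeding ones, and the 3 highest cells held 28.7% of the PHZ Eif5 UMIs. Without the 3 highest cells of each library the Eif5 ratio was 1.36.

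Over the 24 sums of stage or class by library with at least 50 cells, likeness was described by Pearson's r of log2(CPM + 10), without a test, since the sums share libraries and classes. Among 7589 genes searched, Eif2s2 was most like Psmc3, Psmc2 and Psmc6, which encode ATPase subunits of the proteasome, with r from 0.948 to 0.951. Eif5 was most like Mff, AK157302 and Snx15 (0.984 to 0.985), Eif1 like Bsg, Dhrs11 and Fam210b (0.962 to 0.966), and Eif4ebp1 like Cpd, Tkt and Znhit1 (0.834 to 0.864). Eif4e was most like Supt16, Wbp11 and Eif1ad (0.971 to 0.979) and Eif2s1 like Zranb2, Hsp90aa1 and Psmd11 (0.928 to 0.936). Eif2b5 was most like Llph, Rars and Exosc3 (0.959 to 0.964), Eif4a1 like Morf4l2, Atp5g3 and Slirp (0.964 to 0.966), and Eif4a2 like Fam172a, Akap9 and Fto (0.985 to 0.986). Among the members, r was 0.861 between Eif2s1 and Eif2s2 and 0.844 between Eif5 and Eif1, while Eif4a2 had an r of -0.890 with Eif1 and -0.847 with Eif5.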

How the data were processed

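The authors deposited raw UMI counts of each gene in every barcode, cells and empty droplets alike, for 2 libraries. Per the submitters' processing notes, reads were processed with Cell Ranger 7.0.0 against mm10. The file headers name an earlier release of that program. Cells had at least 1000 UMIs, 300 genes and at most 10% mitochondrial UMIs. Scrublet (scanpy 1.11.5) scored doublets, and the highest 0.8% per 1000 cells were removed. Cells were clustered together (Leiden, resolution 1, leidenalg 0.10.2). Clusters were named from fixed marker lists by relative marker level. That naming rule was set after the clusters' leading genes were seen, and 309 and 328 cells stayed unnamed. Counts were summed per stage or class and library and divided by the total without haemoglobin. Ratios carry exact conditional intervals, levels exact Poisson intervals and shares exact Clopper-Pearson intervals. A gene counted as different past 1.5-fold with at least 20 UMIs over both sums. Ratios needed at least 50 cells per library.

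The members, lists and stages were chosen with earlier results of these data known. All 9 members are named. Other initiation genes are named if among the 3 with the most late UMIs, or past 2-fold with 50 UMIs. Atf4, Asns and Ddit3 were picked by name as context. The ratio script was tested on simulated data. Alternatives covered denominators, weighting, filters, doublets, background RNA, stage boundaries and clustering. Gene positions are from GENCODE M21.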

Additional observations from a re-analysis of the deposited data

How the results depend on the processing

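No paired analysis was possible because each group has 1 library. The 4 counts of members past 1.5-fold were recomputed under 14 alternatives, and 52 of 56 values were within 1.5 times the reported count. The exceptions concern late cells between the libraries. The count of members higher in the PHZ library, 2 as reported, was 5 with the 3 highest cells of each gene left out, a step that removes a larger share of the 203 bleeding than of the 410 PHZ cells, and 1 with a minimum of 50 UMIs per gene. The count of members lower in the PHZ library, 1 as reported, was 0 with the late stage from 75% haemoglobin and 0 with a minimum of 50 UMIs. Of 1500 recomputed member values, 1384 stayed inside the counting interval of the reported value and 83 crossed 1. Of these, 3 had been past 1.5-fold as reported: Eif1 in late over least mature PHZ cells with all UMIs in the denominator (0.218), and Eif2b5 (0.749) and Eif4a1 (0.998) in neutrophil-like cells with each cell weighted alike. In the neutrophil-like cluster led by Il1b alone, added after seeing the data, Eif2b5 was at 0.549 and Eif4a1 at 0.745. The cause was not tested.

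Eif2s2 in late cells ranged from 2.70 to 3.11 over the 12 alternatives that recompute ratios, and from 4.48 to 5.98 in cells with fewer than 500 genes. Eif4a2 ranged from 0.379 to 0.71 in late cells, and in cells with fewer than 500 genes from 0.743 to 1.41. Scaling by the median of ratios moved the median log2 ratio of all genes in late cells from -0.06 to 0.04. In haemoglobin-rich cells Eif2b5, Eif4e, Eif4ebp1 and Eif4a2 rest on fewer than 50 UMIs per library, and their ratios there are limited by depth.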
